A study of Mus musculus with 6 samples.

Results

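The TNF receptor superfamily was examined here through 10 genes: the ligands Tnf and Tnfsf9, the death receptors Fas, Tnfrsf10b and Tnfrsf1a, the receptors Tnfrsf1b, Ltbr, Cd40 and Tnfrsf12a, which signal through TRAF adaptors, and the ubiquitin ligase Birc3. The genes were taken by symbol from a deposited table of 19832 genes in EO771 cells, a mouse mammary tumour line. Of the 10 genes, 8 were found and all 8 were at a level that allowed a test, while the levels of Tnf and Tnfsf9 were not analysed here. The samples were 3 libraries of EO771 tumour cells treated with recombinant lipocalin-2 (LCN2), a secreted protein that binds siderophores, and 3 libraries of EO771 cells labelled as control. Beyond the treatment the labels name no allele, dose, exposure time or batch, and all 6 libraries came from the same line. Nothing in the labels says that replicates were separate cultures, so p-values measure the spread between these libraries, which may be partly technical.

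Receptors of this family carry cysteine-rich repeats outside the cell and bind trimeric ligands. Death receptors have a cytoplasmic death domain that can assemble FADD and caspase-8 and start apoptosis, while other members bind TRAF proteins directly and activate NF-kB and MAP kinases. Birc3 (cIAP2) is brought to the receptors by TRAF1 and TRAF2 and ubiquitinates RIPK1, which favours survival signalling over death, and it is itself a known NF-kB target. The comparison asks how the mRNAs of this system differ when LCN2 is added to the tumour cells.

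Upstream sequences are shown for Tnfrsf12a and Birc3, called members with an entry in RefSeq's promoter table (GRCm38.p6, gene strand, 5′ to 3′). Each runs from 250 bases before the RefSeq start to the first base of the GENCODE gene, which leaves 231 bases for Tnfrsf12a (chr17:23677469-23677699, minus strand) and 234 bases for Birc3 (chr9:7873187-7873420, minus strand). Capitals would mark a motif match, and there is none in either.
Tnfrsf12a: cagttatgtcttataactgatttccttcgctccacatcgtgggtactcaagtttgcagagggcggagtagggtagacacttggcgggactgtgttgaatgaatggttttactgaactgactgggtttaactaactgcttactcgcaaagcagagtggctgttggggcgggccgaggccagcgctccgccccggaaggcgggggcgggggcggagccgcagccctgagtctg
Birc3: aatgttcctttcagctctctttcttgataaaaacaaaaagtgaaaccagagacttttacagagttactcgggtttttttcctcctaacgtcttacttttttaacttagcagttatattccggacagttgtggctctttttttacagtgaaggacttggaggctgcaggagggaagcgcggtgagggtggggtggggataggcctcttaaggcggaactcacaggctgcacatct

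The 250 bases before each RefSeq start were searched on both strands for the NF-kB consensus, for AP-1 (TGANTCA), for an amino acid response element (TGATGCAA) and for the SRF CArG box. Of the 7 members with an entry, Tnf among them, 1 had a match, a single AP-1 match 211 bases before the start of Fas. Among all 32851 windows of the same length in the table, 7.25% hold the NF-kB consensus, 6.75% hold AP-1, 0.791% hold the amino acid response element and 1.47% hold the CArG box. Counted by gene, over 27025 genes, the shares are 8.23%, 7.82%, 0.918% and 1.62% in the same order. The search also covered 13 other genes named below, and 3 of these, Tnfaip3, Tnip1 and Cyld, held the NF-kB consensus. The search found 1 other match in these genes, an AP-1 match in Tnfaip3. All are shown with 5 bases on each side and the match in capitals, beside the AP-1 match of Fas, because these 3 genes are described among the called ones below. The lines give Tnfaip3 (AP-1 at chr10:19015535-19015551, NF-kB consensus at chr10:19015521-19015540 and chr10:19015408-19015427, minus strand), Tnip1 (chr11:54962982-54963003, minus strand, where 3 overlapping matches run together), Cyld (chr8:88696868-88696887, plus strand) and Fas (chr19:34290443-34290459, plus strand).
Tnfaip3 AP-1: ccaggTGACTCAcgcgg
Tnfaip3 first NF-kB: acgcgGGGACACCCCggggc
Tnfaip3 second NF-kB: ccatcGGAAATCCCCctgtt
Tnip1: tcatgGGGGAATTCCCCtcctg
Cyld: cgagcGGAAAGTCCCttcag
Fas: agtggTGAGTCAgtggg
A match describes letters in these windows only, and distal elements were not searched.

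Values are FPKM, fragments scaled to transcript length and to library size, a unit inferred from the deposited values. They can be compared between genes because they are scaled to length. Tests were made with limma on log2(FPKM + 1) after scaling between libraries, over the 10309 genes whose mean reached 1 FPKM, and a gene is called at a Benjamini-Hochberg adjusted p under 0.05. Log2 fold changes are given as LCN2 over control on this scale, where those of low genes come out too small. Of all genes tested, 21.4% were called, 11.6% higher and 9.87% lower, or 1192 and 1017 genes. With values as deposited, 693 were higher and 1680 lower. Leaving out replicate 1 or replicate 3 of either group brought the calls to between 175 and 399 higher and between 89 and 211 lower, and leaving out LCN2 replicate 2 to 1626 and 1526. The columns summed to between 391569 and 393735 FPKM in LCN2 libraries and between 395915 and 410808 FPKM in control libraries, and the number of reads is unknown. In a principal component analysis, LCN2 replicate 2 took an intermediate place on component 1, at 4.33, against 15.7 and 16.5 for the other LCN2 libraries and -17.3 to -8.09 for the controls. Values without it are given as a description and support no call, since leaving out the LCN2 library nearest the controls widens the difference between the groups. Epithelial keratin genes were abundant, with a summed level of 5 epithelial markers between 1091 and 1123 FPKM in LCN2 libraries and between 1107 and 1177 FPKM in control libraries, although Cdh1 was at or below 0.209 FPKM. These markers moved both ways, as Krt8 was called lower (log2 fold change -0.27, limma adjusted p = 0.00948) and Krt18 higher (0.17, limma adjusted p = 0.0320), while Epcam, at 12.4 to 13.9 FPKM in LCN2 libraries and 15.2 to 17.1 FPKM in control libraries, was not called (limma adjusted p = 0.0539). Exons of Krt8 overlap those of an antisense gene. The part of these markers in the results was not tested. Of 5 mast cell markers 4 were listed at 0 in every library, and Ptprc, the pan-leukocyte marker, stayed at or below 0.0868 FPKM.

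In LCN2-treated cells 3 of the 8 members rose, Tnfrsf12a, Birc3 and Tnfrsf10b, and 0 fell. This is set against 11.6% of all genes tested called higher. The median log2 fold change of the 8 members was 0.24, beside -0.0013 for all genes tested. At an unadjusted p under 0.05 in limma 4 members were higher and 0 lower. The share of all genes at that threshold was not computed, so these counts cannot be weighed. After scaling, all 3 LCN2 libraries lay above all 3 controls in 4 of 8 members, where 22.6% of genes tested did so, and as deposited in 3 of 8, beside 11.9% of genes. The count of 3 became 4 once LCN2 replicate 2 was left out and 1 once control replicate 1 was. It became 0 when control replicate 3 was left out, and likewise for LCN2 replicates 1 and 3. In bulk RNA, a larger share of cells that express a gene and more of its RNA in each cell cannot be told apart.

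**Figure D1:**
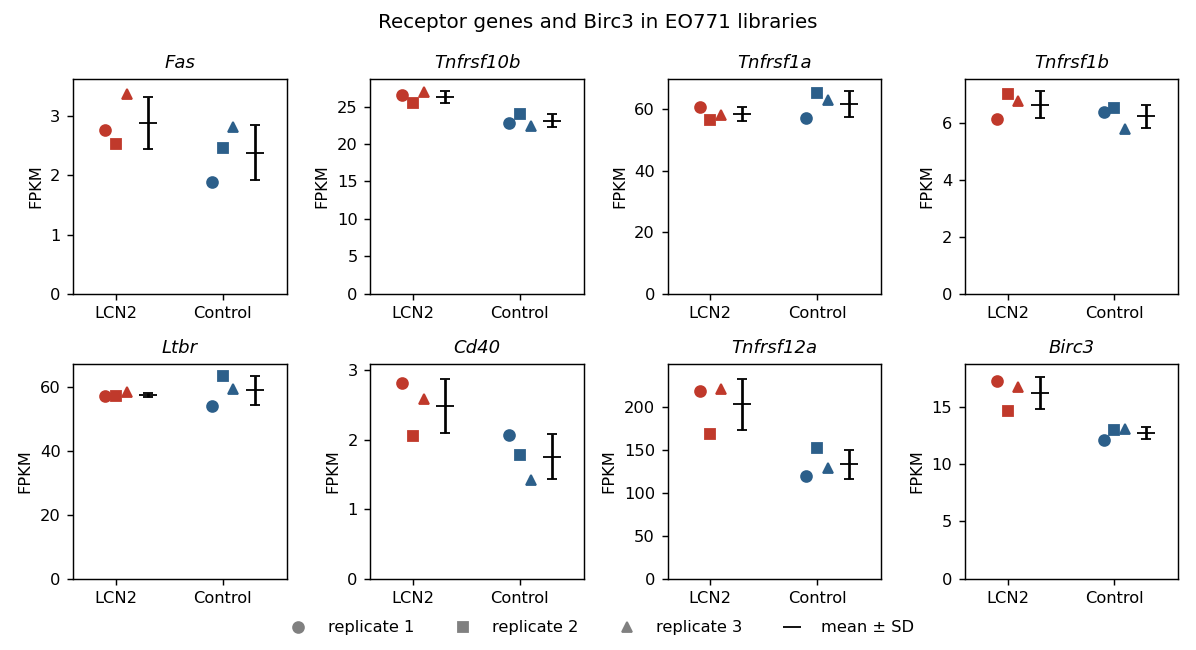
Level of each of the 8 members in FPKM as deposited (vertical axis, from 0) in LCN2 and control libraries, one symbol per replicate, with mean ± SD (n = 3 each) beside the points. Tnfrsf12a, Birc3 and Tnfrsf10b separate the groups, while Tnfrsf1a, Ltbr, Tnfrsf1b and Fas overlap and Cd40 overlaps narrowly, at 2.05 and 2.06 FPKM.

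Among the death receptors, Tnfrsf10b was the called one. Tnfrsf10b (ENSMUSG00000022074, chromosome 14, 69767472 to 69784411, GRCm38) encodes a mouse death receptor for the ligand TRAIL. Its level was 26.5, 25.4 and 26.95 FPKM in LCN2 replicates 1 to 3, against 22.8, 24.1 and 22.5 FPKM in control replicates 1 to 3. The groups did not overlap, with LCN2 replicate 2 the lowest of its group and control replicate 2 the highest of its own. Tnfrsf10b averaged 26.3 ± 0.781 FPKM in LCN2 cells and 23.1 ± 0.853 FPKM in control cells (SD, n = 3 each), a log2 fold change of 0.24 (SE 0.05, limma adjusted p = 0.0156). The call was lost without control replicate 1 (adjusted p = 0.0509), control replicate 3 (adjusted p = 0.0628), LCN2 replicate 1 (adjusted p = 0.0701) or LCN2 replicate 3 (adjusted p = 0.0621) in limma. Without LCN2 replicate 2 the log2 fold change was 0.27 (limma adjusted p = 0.00633).

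The gene for the TNF receptor TNFR1, Tnfrsf1a, was about as high in both groups. Tnfrsf1a (ENSMUSG00000030341, chromosome 6, 125349362 to 125362484) had 60.8, 56.5 and 58.2 FPKM in LCN2 replicates 1 to 3, against 57.2, 65.3 and 63.1 FPKM in control replicates 1 to 3. The LCN2 values fell inside the control range in 2 libraries and just below it in replicate 2. The log2 fold change was -0.02, with a 95% interval from -0.14 to 0.10 (limma adjusted p = 0.835), and 0.01 without LCN2 replicate 2 (adjusted p = 0.854). Fas (ENSMUSG00000024778, chromosome 19, 34290666 to 34327772), the receptor for Fas ligand, was low throughout. It had 2.77, 2.53 and 3.38 FPKM in LCN2 libraries, against 1.88, 2.46 and 2.81 FPKM in control libraries, and the groups overlapped. Its log2 fold change of 0.25 had a 95% interval from -0.05 to 0.55 and did not pass (limma adjusted p = 0.186), also without LCN2 replicate 2 (adjusted p = 0.120).

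Of the TRAF-binding receptors, Tnfrsf12a was the most abundant and the one that rose. Tnfrsf12a (ENSMUSG00000023905, chromosome 17, 23675445 to 23677468) encodes Fn14, the receptor for the cytokine TWEAK, and is known as an inducible gene in injured tissue and tumours. It reached 218, 169 and 221 FPKM in LCN2 replicates 1 to 3, against 119, 151 and 128 FPKM in control replicates 1 to 3. The groups did not overlap, but LCN2 replicate 2 and control replicate 2 lay closest to each other. Tnfrsf12a averaged 202 ± 29.4 FPKM in LCN2 cells and 133 ± 16.8 FPKM in control cells (SD, n = 3 each), a log2 fold change of 0.66 (SE 0.12, limma adjusted p = 0.0129). Of all genes tested, 1.44% had a log2 fold change at least as high. The call was lost in limma without control replicate 3 (adjusted p = 0.0526), LCN2 replicate 1 (adjusted p = 0.0602) or LCN2 replicate 3 (adjusted p = 0.0528). Without LCN2 replicate 2 the log2 fold change was 0.80 (limma adjusted p = 0.00202).

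Cd40, a costimulatory receptor best known on antigen-presenting cells, was low and did not pass. Cd40 (ENSMUSG00000017652, chromosome 2, 165055627 to 165072948) had 2.81, 2.05 and 2.58 FPKM in LCN2 libraries, against 2.06, 1.78 and 1.41 FPKM in control libraries. LCN2 replicate 2 was level with control replicate 1, and the other LCN2 libraries were above every control. The log2 fold change was 0.38 with a 95% interval from 0.09 to 0.67 (limma adjusted p = 0.0626). Without LCN2 replicate 2 it was 0.48 (limma adjusted p = 0.0261), which supports no call as said above. Cd40 passed in only this 1 of 6 fits without 1 library. It passed in 0 of 9 other alternatives (limma adjusted p between 0.0604 and 0.0975).

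Ltbr, the lymphotoxin beta receptor, which feeds the non-canonical NF-kB pathway, was nearly level. Ltbr (ENSMUSG00000030339, chromosome 6, 125306571 to 125313885) had 57.1, 57.3 and 58.4 FPKM in LCN2 libraries, against 54.2, 63.4 and 59.5 FPKM in control libraries. The 3 LCN2 values lay within the control range. Its log2 fold change was 0.03, with a 95% interval from -0.08 to 0.14 (limma adjusted p = 0.689), and 0.04 without LCN2 replicate 2 (adjusted p = 0.597). The sign turned with values as deposited (-0.03) and after quantile normalization (-0.0065), with adjusted p of 0.743 and 0.939 in limma. Tnfrsf1b (ENSMUSG00000028599, chromosome 4, 145213463 to 145246870) encodes TNFR2, which lacks a death domain. It had 6.11, 7.02 and 6.77 FPKM in LCN2 libraries, against 6.38, 6.52 and 5.76 FPKM in control libraries, and the groups overlapped. Its log2 fold change was 0.13, with a 95% interval from -0.03 to 0.29 (limma adjusted p = 0.186), and 0.10 without LCN2 replicate 2 (adjusted p = 0.325).

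The signal transducer Birc3 (ENSMUSG00000032000, chromosome 9, 7848699 to 7873186) rose. It had 17.2, 14.6 and 16.7 FPKM in LCN2 replicates 1 to 3, against 12.1, 13.0 and 13.1 FPKM in control replicates 1 to 3. Every LCN2 library was above every control, and LCN2 replicate 2 was the lowest of its group. Birc3 averaged 16.2 ± 1.39 FPKM in LCN2 cells and 12.7 ± 0.550 FPKM in control cells (SD, n = 3 each), a log2 fold change of 0.38 (SE 0.07, limma adjusted p = 0.0159). The call was lost in limma without control replicate 1 (adjusted p = 0.0566), control replicate 3 (adjusted p = 0.0507), LCN2 replicate 1 (adjusted p = 0.0683) or LCN2 replicate 3 (adjusted p = 0.0637). Without LCN2 replicate 2 the log2 fold change was 0.46 (limma adjusted p = 0.00313). Its paralogue and neighbour Birc2, with 11634 bases between the 2 genes, was not called, with a log2 fold change of 0.08 (limma adjusted p = 0.334).

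**Figure D2:**
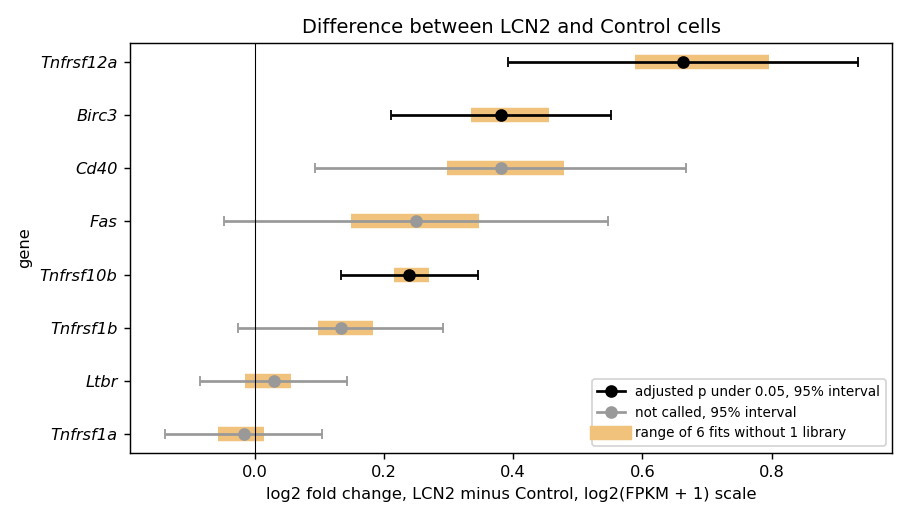
Log2 fold change, LCN2 minus control, of the 8 members (horizontal axis, from log2(FPKM + 1) values), with 95% intervals from limma and, as a band, the range over 6 fits that each leave out 1 library. Tnfrsf12a (0.66), Birc3 (0.38) and Tnfrsf10b (0.24) are called, and the intervals of Fas, Tnfrsf1b, Ltbr and Tnfrsf1a include 0.

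The order of the 8 members by mean level was the same in LCN2 and control cells, from Tnfrsf12a through Tnfrsf1a, Ltbr, Tnfrsf10b, Birc3, Tnfrsf1b and Fas to Cd40. Neighbours whose ranges overlapped in both groups were Tnfrsf1a with Ltbr and Fas with Cd40. Those of every other pair of neighbours were apart in both groups. Ltbr and Tnfrsf1a also lie close together in the genome, 35476 bases apart on chromosome 6. Over the 26 receptor superfamily genes in the table, summed FPKM was 451, 397 and 459 in LCN2 libraries, against 347, 397 and 361 in control libraries. As deposited, the sum of LCN2 replicate 2 lay inside the control range. After scaling between libraries the sums were 462, 401 and 473 FPKM in LCN2 libraries, against 347, 374 and 360.0 FPKM in control libraries, and did not overlap. Tnfrsf12a made up 48.3%, 42.4% and 48.1% of that sum in LCN2 libraries, against 34.2%, 38.1% and 35.5% in control libraries. The share of Tnfrsf1a was between 12.7% and 14.2% in LCN2 libraries and between 16.4% and 17.5% in control libraries.

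**Figure D3:**
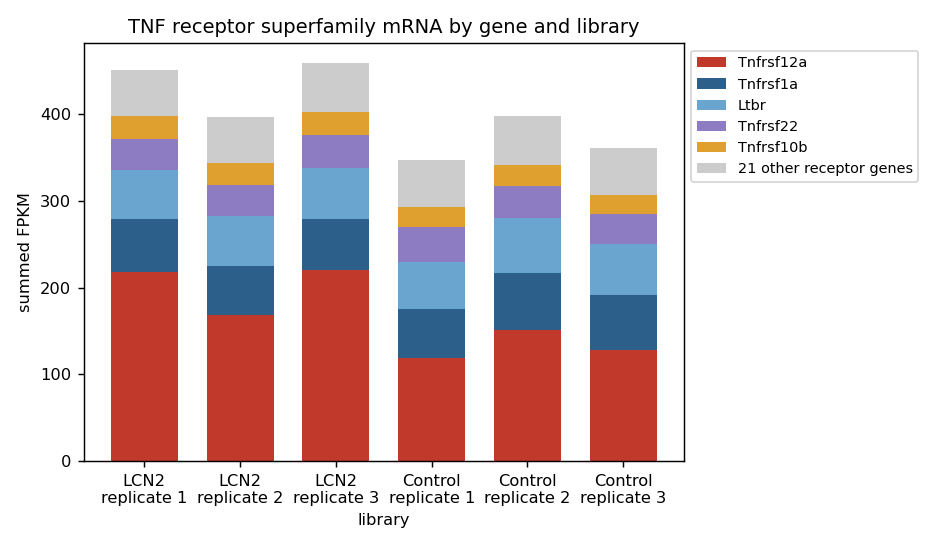
Summed FPKM of the receptor superfamily genes (vertical axis, from 0) in each library (horizontal axis), split into the 5 most abundant genes and the rest. The Tnfrsf12a segment is 169 to 221 FPKM in LCN2 libraries and 119 to 151 FPKM in control libraries, and the other segments are of similar height in all 6.

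Profiles most like those of Tnfrsf12a and Tnfrsf10b, which had the lowest adjusted p of the members, were sought over the 6 libraries outside the pathway lists. Likeness was the root mean square difference between centred log2 profiles. For Tnfrsf12a the nearest were Sft2d2 (0.0227), Cdc42ep1 (0.0337) and Nfil3 (0.0368). Sft2d2 had 52.6, 41.3 and 56.0 FPKM in LCN2 libraries, against 28.6, 36.8 and 31.6 FPKM in control libraries. For Tnfrsf10b they were Itm2b (0.0128), Gnl3 (0.0137) and Eif3c (0.0141), and Itm2b had 250, 241 and 254 FPKM in LCN2 libraries, against 216, 228 and 218 FPKM in control libraries. Replicate 2 was the lowest LCN2 library and the highest control in both examples, as the choice by likeness fixes. Exons of Cdc42ep1 and Gnl3 overlap those of other annotated genes.

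Among the ligands of the family in the table, most were at or near 0. Of 18 listed, Tnf, Tnfsf9, Lta, Fasl and Tnfsf18 were not analysed here. Of the 13 in the table, 5 were at 0 in every library, and 2 passed the level for testing. Of these 2, 1 fell and 0 rose in limma at an adjusted p under 0.05, beside 9.87% and 11.6% of all genes tested. At an unadjusted p under 0.05 the counts were also 1 and 0, with no share of all genes computed. Tnfsf4, the OX40 ligand, a costimulator of T cells, had 3.46, 4.26 and 3.14 FPKM in LCN2 libraries, against 5.68, 6.02 and 5.94 FPKM in control libraries. The groups were well apart (log2 fold change -0.53, SE 0.09, limma adjusted p = 0.0116). This call was lost without control replicate 3 (adjusted p = 0.0522) or LCN2 replicate 1 (adjusted p = 0.0557) in limma. Tnfsf12, which encodes TWEAK, the ligand of the receptor made from Tnfrsf12a, was chosen for that pairing after its values were seen. It had 5.43, 5.26 and 4.94 FPKM in LCN2 libraries, against 5.23, 5.73 and 5.97 FPKM in control libraries, and was not called (log2 fold change -0.05, 95% interval from -0.20 to 0.11, limma adjusted p = 0.650). Its exons overlap those of the read-through gene Tnfsfm13, so part of its reads may be shared.

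The receptor superfamily as a whole moved both ways. Of 28 listed receptors, 26 were in the table and 16 were tested, 7 members above among them. Of all 16 tested, 5 rose and 2 fell, beside 11.6% and 9.87% of all genes tested. The median of the 16 was 0.17 on the log2 scale. Among the 9 that are not members, 3 rose and 2 fell, beside 11.6% and 9.87% of all genes tested. Relt, a lymphoid-tissue receptor of the family, had 3.67, 3.92 and 4.15 FPKM in LCN2 libraries, against 2.67, 2.37 and 2.51 FPKM in control libraries (log2 fold change 0.53, SE 0.08, limma adjusted p = 0.00903). Tnfrsf21, the death domain receptor DR6, averaged 8.30 ± 1.15 FPKM in LCN2 cells and 6.21 ± 0.331 FPKM in control cells (0.41, limma adjusted p = 0.0280). Tnfrsf11b, the soluble decoy receptor osteoprotegerin, was the remaining rise and is named after its values were seen (0.52, limma adjusted p = 0.0317). Its call was lost on leaving out any control library, and on leaving out LCN2 replicate 1 or LCN2 replicate 3.

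Tnfrsf18 and Tnfrsf19 fell. Tnfrsf18 encodes GITR, a receptor best known on regulatory T cells. It had 3.73, 4.15 and 3.81 FPKM in LCN2 libraries, against 6.41, 6.52 and 6.40 FPKM in control libraries (log2 fold change -0.55, SE 0.06, limma adjusted p = 0.00438). Tnfrsf19 (TROY), a receptor of stem and progenitor cells in several epithelia, had 10.6, 12.6 and 10.2 FPKM in LCN2 libraries, against 16.3, 16.8 and 16.0 FPKM in control libraries (log2 fold change -0.47, SE 0.07, limma adjusted p = 0.0102). In both genes every LCN2 library was below every control. Exons of Tnfrsf18 overlap those of an antisense gene, and how strand was handled is not stated in the labels. The calls of Tnfrsf18 and Relt held in all 6 fits without 1 library, that of Tnfrsf19 was lost without LCN2 replicate 1 (adjusted p = 0.0521), and that of Tnfrsf21 held only without LCN2 replicate 2 (limma adjusted p = 0.00301, and between 0.0557 and 0.101 in the other 5 fits). Leaving out control replicate 1 brought the 5 rises of the receptor list to 2, and leaving out control replicate 2 brought them to 3. They came to 1 when control replicate 3 or either of LCN2 replicates 1 and 3 was dropped, and the 2 falls came to 1 when LCN2 replicate 1 was.

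Behind the receptors, 12 of 26 tested genes of adaptors, kinases and ubiquitin enzymes rose, beside 11.6% of all genes called higher, and 0 fell. The member Birc3 is in this list, and without it 11 of 25 rose and 0 fell. The median log2 fold change of the 26 was 0.12. At an unadjusted p under 0.05 in limma 13 were higher and 1 lower, with no share of all genes computed at that threshold. Traf1, an adaptor that joins TRAF2 at several receptors, had 4.82, 3.39 and 5.43 FPKM in LCN2 libraries, against 1.09, 1.46 and 1.41 FPKM in control libraries. Every LCN2 value was more than any control, and replicate 2 was again the lowest LCN2 library (log2 fold change 1.29, SE 0.15, limma adjusted p = 0.00513). Traf2, which recruits Birc3 to the receptors, averaged 10.2 ± 0.604 FPKM in LCN2 cells and 7.53 ± 0.504 FPKM in control cells (0.45, limma adjusted p = 0.00636).

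Tnfaip3, Tnip1 and Cyld, each known to restrain receptor signalling, rose. Tnfaip3 (A20), an enzyme that edits ubiquitin chains on RIPK1, had 8.63, 7.77 and 7.85 FPKM in LCN2 libraries, against 4.08, 5.53 and 5.05 FPKM in control libraries (log2 fold change 0.69, SE 0.09, limma adjusted p = 0.00594). Its partner Tnip1 (ABIN-1) averaged 32.1 ± 0.564 FPKM in LCN2 cells and 26.1 ± 1.42 FPKM in control cells (0.35, limma adjusted p = 0.00636). The deubiquitinase Cyld averaged 14.1 ± 1.26 FPKM in LCN2 cells and 10.5 ± 1.43 FPKM in control cells (0.46, limma adjusted p = 0.0175). Otulin, a deubiquitinase of linear ubiquitin chains that also restrains this signalling, is named after its values were seen. It had 27.1, 28.0 and 28.4 FPKM in LCN2 libraries, against 31.7, 32.1 and 30.5 FPKM in control libraries. Every LCN2 value was below every control, but the gene was not called (log2 fold change -0.11, limma adjusted p = 0.107). Tnfaip3, Tnip1 and Cyld are the genes whose upstream windows held the NF-kB consensus shown above. The windows of Traf1, Traf2, Birc3, Tnfrsf12a, Relt, Tnfrsf21, Cflar and Bid, which also rose, held none. Whether the matches bear on the rises was not tested. Traf1, Traf2, Tnfaip3 and Tnip1 were called in all 6 fits without 1 library. Cyld was not called in the 4 fits that left out replicate 1 or replicate 3 of either group (limma adjusted p between 0.0576 and 0.0736). The count of 12 became 4 in each of those same 4 fits.

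**Figure D4:**
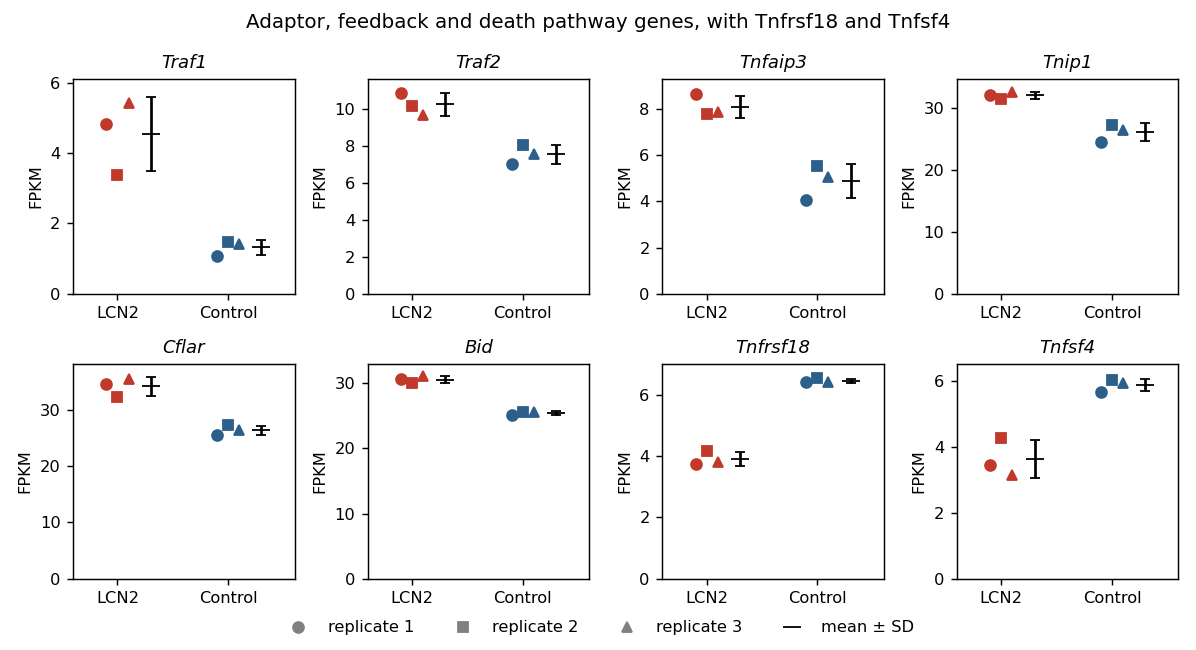
FPKM as deposited (vertical axis, from 0) of 8 genes of the ligand, receptor, adaptor and death lists in LCN2 and control libraries, one symbol per replicate, with mean ± SD (n = 3 each). Traf1, Traf2, Tnfaip3, Tnip1, Cflar and Bid are higher in every LCN2 library than in any control, and Tnfrsf18 and Tnfsf4 are lower.

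Of 16 tested genes in a list for extrinsic apoptosis and necroptosis, 2 rose and 3 fell, beside 11.6% and 9.87% of all genes tested. The median log2 fold change was -0.02. The list also holds genes of the mitochondrial route of apoptosis (Apaf1, Casp9, Cycs, Diablo, Htra2, Bax and Bak1), and none of these was called. Over the whole list, the share that rose was near that of all genes. Cflar, which encodes cFLIP, the inhibitor of caspase-8 at death receptors, had 34.6, 32.3 and 35.6 FPKM in LCN2 libraries, against 25.6, 27.2 and 26.4 FPKM in control libraries (log2 fold change 0.42, SE 0.05, limma adjusted p = 0.00565). Bid, the BH3 protein cleaved by caspase-8, averaged 30.5 ± 0.552 FPKM in LCN2 cells and 25.4 ± 0.256 FPKM in control cells (0.31, limma adjusted p = 0.00775), and its exons overlap those of Bcl2l13. Both were called in all 6 fits without 1 library.

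Casp8 and Casp6 were among the called falls in this list. Casp8, the initiator caspase of death receptors, had 28.6, 30.8 and 28.6 FPKM in LCN2 libraries, against 35.1, 35.5 and 34.2 FPKM in control libraries (log2 fold change -0.18, SE 0.05, limma adjusted p = 0.0293). The executioner caspase gene Casp6 averaged 4.73 ± 1.01 FPKM in LCN2 cells and 7.63 ± 0.684 FPKM in control cells (-0.55, limma adjusted p = 0.0268). Neither was called in the 4 fits that left out replicate 1 or replicate 3 of either group (limma adjusted p between 0.0870 and 0.108). The adaptor Fadd was chosen after its values were seen, at 3.21, 3.33 and 3.23 FPKM in LCN2 libraries, against 3.50, 3.70 and 3.98 FPKM in control libraries, and was not called (log2 fold change -0.10, limma adjusted p = 0.304).

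**Figure D5:**
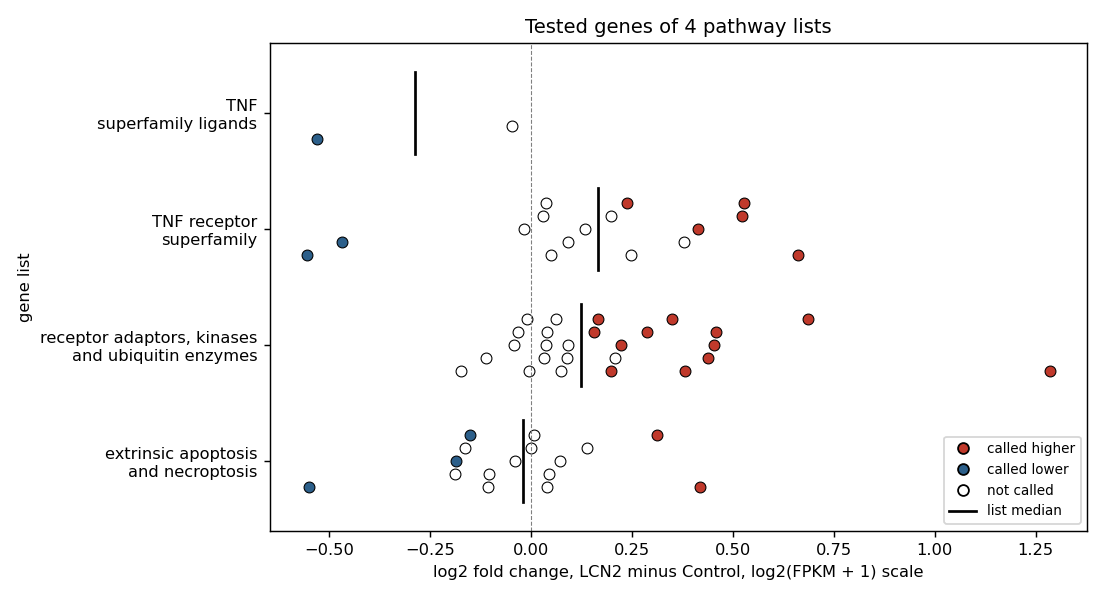
Log2 fold change, LCN2 minus control (horizontal axis, from log2(FPKM + 1) values), of every tested gene in 4 lists of the TNF receptor pathway, with called genes filled and each list's median as a bar. The adaptor list has 12 called rises and 0 called falls among 26 genes, and the apoptosis list has 2 and 3 among 16, beside 11.6% and 9.87% of all genes tested.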

How the data were processed

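RNA of 6 EO771 libraries, 3 with LCN2 and 3 control, had been prepared with a SMARTer mRNA kit, per the labels' protocols. The authors deposited 1 table, described by its name as raw counts. Of its values above 0, 0% were whole within 1e-9, and values times annotated transcript length in kilobases summed to 1032628 to 1095179 per library, so the deposited values were treated as FPKM. The build was GRCm38 per the submitters' processing notes, and the sources used here name no aligner or quantifier. Read numbers are unknown, so no counting interval is given. Of the gene IDs, 19798 matched GENCODE M21, which gave coordinates and exon overlaps.

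Libraries were scaled by unweighted TMM (trims 0.3 and 0.05, factors 0.970 to 1.06). Genes whose mean reached 1 FPKM entered limma 3.58.1 (R 4.3.3) on log2(FPKM + 1) with a variance trend, no replicate term and a two-sided test. Data were simulated for this comparison over 10309 genes, with 99 genes changed by 0.5 and 96 by 1 on the log2 scale. Of these, 81.8% and 96.9% were recovered, with 10 false calls. Noise was drawn separately for each gene, and far fewer genes changed than the 21.4% called in the data. Changes under 0.5, the size of those of Birc3 and Tnfrsf10b, were not simulated, so these figures do not cover such calls. No member lay under the filter, so the exact permutation test planned for such genes was not needed for them.

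Members, lists, tests and filters were chosen with earlier results of these data known. Beside the members, the text names up to 6 called genes per list by smallest adjusted p, and the 3 genes most like each of 2 called members in profile. The values of 1 called gene of the apoptosis list are not reported here. Alternatives were 4 other scalings, a pseudocount of 0.1, a filter at 0.1 or none, no variance trend, a replicate block, and leaving out each library.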

Additional observations from a re-analysis of the deposited data

How the results depend on the processing

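Between 0 and 4 members were called higher when 1 library was left out, and 0 were called lower in each of these fits. With a replicate block, 0 were called higher, and all other alternatives gave 3. Same-numbered libraries did not deviate together (correlations of -0.224, -0.261 and 0.00858), but with 3 libraries a group this cannot exclude pairing. The block is given as an alternative, with limma adjusted p of 0.0541 for Tnfrsf12a, 0.0524 for Birc3 and 0.0666 for Tnfrsf10b. Under the replicate block the calls over all genes were 181 higher and 86 lower, the receptor list had 1 rise, the adaptor list 4 rises, the ligand list 0 falls and the apoptosis list 0 falls. With values as deposited, 693 genes were higher and 1680 lower, and 1 adaptor gene was called lower. With no filter, 612 genes were lower and 1 apoptosis gene was called lower. Without 1 library, calls over all genes ranged from 175 to 1626 higher and from 89 to 1526 lower. Those of the receptor list ranged from 1 to 6 higher and from 1 to 2 lower, those of the adaptor list from 4 to 12 higher and from 0 to 1 lower, those of the ligand list were 0 higher and from 0 to 1 lower, and those of the apoptosis list were 2 higher and from 0 to 3 lower.

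Signs turned in 2 uncalled members. Ltbr was at -0.031 with values as deposited and -0.0065 after quantile normalization, and between -0.015 and 0.056 when 1 library was left out (below 0 without control replicate 1). Tnfrsf1a was between -0.057 and 0.015 when 1 library was left out (above 0 without control replicate 3 or LCN2 replicate 2). The cause was not tested. In the other alternatives run these 2 kept their sign, and the other 6 members kept theirs in all. With 3 libraries a group and unknown depth, differences within the printed intervals could not be resolved.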

Other observations

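Under the level for testing lay 11 ligand, 10 receptor and 1 adaptor genes of the lists. The 4 described here were chosen after their values were seen and are those whose groups did not overlap. The groups of the others overlapped or were at 0, as in Tnfrsf4 and Tnfrsf14 (exact permutation p = 0.5 and 0.3). The share of all low genes whose groups lie apart was not computed. Tnfrsf9, which encodes 4-1BB, the receptor for the ligand made from Tnfsf9, had 0.392, 0.506 and 0.636 FPKM in LCN2 libraries, against 0.0897, 0.0945 and 0.186 FPKM in control libraries. The groups did not overlap (two-sided exact permutation p = 0.1, the smallest that 3 against 3 allows). Cd27, a lymphocyte receptor, had 0.250, 0.259 and 0.238 FPKM in LCN2 libraries, against 0.126, 0.152 and 0.137 FPKM in control libraries, with the same exact permutation p of 0.1. Tnfsf15, a ligand known from endothelium, had 0.206, 0.261 and 0.225 FPKM in LCN2 libraries, against 0.0585, 0.181 and 0.108 FPKM in control libraries (exact permutation p = 0.1). Traf5, an adaptor of several costimulatory receptors, was at 0.535, 0.782 and 0.684 FPKM in LCN2 libraries, against 1.15, 0.937 and 1.02 FPKM in control libraries (exact permutation p = 0.1).

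Of the 4 endothelial markers listed, 3 were in the table, with a summed level between 0.270 and 0.660 FPKM in LCN2 libraries and between 0.255 and 0.472 FPKM in control libraries. Immune markers summed to between 10.1 and 10.7 FPKM in LCN2 libraries and between 9.68 and 11.6 FPKM in control libraries, most of it Cd68, a lysosomal gene. Cd68, the only immune marker tested, was not called (log2 fold change 0.15, limma adjusted p = 0.157). Itgam, a myeloid integrin gene of that list, was chosen after its values were seen. It had 0.706, 0.631 and 0.839 FPKM in LCN2 libraries, against 1.34, 1.12 and 1.09 FPKM in control libraries (exact permutation p = 0.1). The groups of the other low immune markers overlapped. Exons of Itgam overlap those of another annotated gene. Of 4 fibroblast markers in the table, Dcn supplied most of the sum of 581 to 612 FPKM in LCN2 libraries and 489 to 545 FPKM in control libraries, while Pdgfrb was listed at 0 in every library. Dcn was called higher (log2 fold change 0.30, limma adjusted p = 0.00636). Pdgfra, the other fibroblast marker tested, leaned lower and was not called (log2 fold change -0.15, limma adjusted p = 0.231).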
